A study of Mus musculus with 12 samples.

Results

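The sirtuins Sirt2 to Sirt7 were measured in mouse embryonic fibroblasts (MEFs, connective tissue cells grown from embryos) that were wild type (WT), heterozygous (Het) or knockout (KO) for Sirt1, the founding member of the family. Every probe that the array names Sirt2, Sirt3, Sirt4, Sirt5, Sirt6 or Sirt7 was taken, which gave 9 of the 41174 non-control probes, for 6 of the 27962 gene names on the array. Sirt2 has 3 of them, Sirt7 has 2, and Sirt3, Sirt4, Sirt5 and Sirt6 have 1 each. RNA from 4 samples of each genotype was labelled with Cy3, starting from 500 ng, and hybridised to 12 1-colour Agilent arrays. All cells, in all 3 genotypes, were labelled as female MEFs without special treatment, and were grown in DMEM that held 25 mM glucose, 4 mM glutamine and serum (FBS, 10%). The replicate numbers are 1, 2, 3 and 5 in WT and 2, 3, 4 and 5 in Het and KO. The labels name no strain, allele, embryo age or passage. Whether the replicates came from different cultures is not stated, and the p-values below therefore rest on a spread that could be technical.

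Sirtuins are enzymes that use NAD to remove acetyl and other acyl groups from lysines of proteins. SIRT2 is mostly cytoplasmic and acts on tubulin and on proteins of mitosis. SIRT3, SIRT4 and SIRT5 work inside mitochondria, SIRT6 acts on chromatin, and SIRT7 is found in the nucleolus, where ribosomal RNA is made. The comparison asks whether the mRNA of these genes differs between cells with the 3 Sirt1 genotypes.

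The probes are 60 bases long, and what each of them reads sets what its level can show. Probe positions are those of the array's design, on build mm7, for which no gene models were used here, so exons and untranslated regions were not assigned. Of the 3 Sirt2 probes, A_52_P656024 (chr7:25720214-25721839, plus strand) spreads its 60 bases over 1626 bases of genome and so crosses an exon junction, while A_52_P547447 (chr7:25722588-25722647) and A_51_P110068 (chr7:25722625-25722685) lie downstream of it and overlap. The junction probe is shown whole because it reads another part of the transcript than the other pair:
Sirt2 A_52_P656024: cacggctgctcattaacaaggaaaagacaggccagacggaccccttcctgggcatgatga
The start of the other Sirt2 probe, with the 23 bases it shares with A_52_P547447 in capitals, shows why these probes are not independent readings:
Sirt2 A_51_P110068: GAATAAGGCATTTCTCTATTGTTttgaggg
The Sirt7 probes A_51_P352264 (chr11:120727467-120727526) and A_52_P138727 (chr11:120727487-120727546), both on the minus strand, share 40 bases. The first 30 bases of each are given with shared bases in capitals:
Sirt7 A_51_P352264: GTACAAGTGTTCACTTTATAGAAGCCTTTT
Sirt7 A_52_P138727: ctctttctactccttatcacGTACAAGTGT
Sirt3 was read by A_51_P477179 (chr7:137280969-137281028, minus strand), the single member called in any comparison. It starts with these 30 bases:
Sirt3 A_51_P477179: caggcgatgcactagggcaatctagcatgt
Sirt4 was read by A_51_P424641 (chr5:114698987-114699046, minus strand) and Sirt5 by A_51_P411909 (chr13:42835248-42835307, plus strand). The Sirt6 probe A_51_P416215 is placed by the array's design over only 15 bases (chr10:81417014-81417028, minus strand).

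Throughout, a level is the processed signal on a log2 scale after subtraction of that array's 75th percentile, and it compares 1 probe between arrays, never 1 probe with another. Differences are log2 fold changes from a limma fit over all 12 arrays, and a probe was called when its p, adjusted by Benjamini-Hochberg over all 25600 tested probes, was under 0.05. With 4 arrays against 4, the exact two-sided permutation test cannot give a p below 0.0286. All 9 sirtuin probes were well above background on all 12 arrays and none was saturated. Unscaled processed signals ran from 142.2 to 557.1 for Sirt6, the dimmest of them, and from 5520.9 to 19694.2 for the Sirt2 probe A_52_P547447. The median difference of all tested probes was 0.02 in Het relative to WT, 0.04 in KO relative to WT and −0.00 in KO relative to Het. Without scaling these values became −0.21, 0.06 and 0.25, and every difference below is relative to the scaling.

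The targeted gene was checked first. At the Sirt1 probe A_51_P141152 the levels were 0.38, 0.52, 0.06 and 0.47 in WT, 0.37, 0.33, 0.38 and 0.39 in Het, and −0.19, −0.26, −0.67 and −0.75 in KO. KO lay below WT on every array (−0.83, SE 0.17, limma adjusted p = 0.0361). It was −0.92 without WT replicate 3 (adjusted p = 0.00743), and was not called with the slide as a block (−0.80, adjusted p = 0.179). At this probe Het and WT did not differ beyond the spread (0.01, 95% interval −0.35 to 0.37). The second Sirt1 probe, A_52_P358612, differed by 0.02 in KO against WT (adjusted p = 0.982), and whether either probe lies in the mutated part is not given in the sources used here.

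The array of WT replicate 3 goes against its label. Xist, the RNA of the inactive X chromosome, stood at −2.94 there and at 1.66 to 3.42 on the other 11 arrays, and the Y-linked Ddx3y at 1.04 there and at −10.2 to −4.35 elsewhere. Arrays numbered 3 also stood apart in all genotypes, with correlations to arrays of their own genotype of 0.923 to 0.970, against 0.969 to 0.998 among the others. The highest of these was between KO replicates 4 and 5 (0.998), and whether these share a culture is not given in the sources used here. With this pair averaged into 1 sample Sirt3 in Het against WT was not called (0.66, adjusted p = 0.077), and the calls over all probes for KO against WT fell from 383 to 73. The arrays lay on 4 slides, told apart by barcode. WT replicate 1 was alone on its slide, and the slide of Het replicates 3 and 4 and KO replicate 3 held no WT array. WT replicate 1 therefore adds nothing to the values within slides or to the differences with the slide as a block. On slide 4, which carried the 3 arrays numbered 5 and KO replicate 4, 77.2% to 78.2% of spots were well above background, against 60.0% to 65.1% on the other slides. All 14 fibroblast markers were well above background on all 12 arrays. Their summed linear level was 638 to 784 in WT, 743 to 948 in Het and 592 to 725 in KO. The sum gives most weight to the brightest markers, such as Col1a1, which averaged 6.57, 6.86 and 6.73 in WT, Het and KO. Some single markers moved more, and Thy1, Dcn and Lum moved most. In the same order Thy1 averaged 4.05, 2.73 and 0.57, Dcn 1.83, 3.06 and −0.15, and Lum −3.04, −1.38 and −3.26. Among markers of other cells, the summed levels in WT, Het and KO were 2.76 to 18.0, 1.06 to 3.40 and 3.18 to 5.62 for 6 epithelial markers, 0.695 to 48.4, 6.25 to 20.1 and 6.90 to 31.0 for 5 mesothelial markers, 8.16 to 31.6, 5.49 to 10.2 and 8.50 to 11.4 for 5 skeletal muscle markers, and 5.26 to 23.4, 7.77 to 10.6 and 9.81 to 15.1 for 6 neural markers. Endothelial and macrophage sums were at most 0.492. The endothelial markers Pecam1 and Tie1, the macrophage marker Ptprc, the mesothelial markers Wt1 and Lrrn4 and the muscle regulator Myf5 were not well above background on any array. No marker of these lists was called in any comparison, and the part of other cells in the results below was not tested.

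Of the 9 sirtuin probes, 1 was called for Het against WT, where 1.09% of all tested probes were called. None was called for KO against WT, with 1.50% of all probes called, or for KO against Het, with 0.816%. At an unadjusted p under 0.05 the counts in limma were 3, 2 and 2 of 9, against 15.9%, 16.3% and 11.3% of all probes. A fit with array weights called 1, 3 and 2 of the 9, against 4419, 9687 and 7533 of all 25600 tested probes. The genotypes did not overlap at 2 of 9 probes for Het against WT, 1 of 9 for KO against WT and 2 of 9 for KO against Het. Over all tested probes that share was 8.66%, 8.64% and 9.92%. The median difference of the 9 probes was 0.01 in Het relative to WT, 0.08 in KO relative to WT and −0.16 in KO relative to Het.

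**Figure D1:**
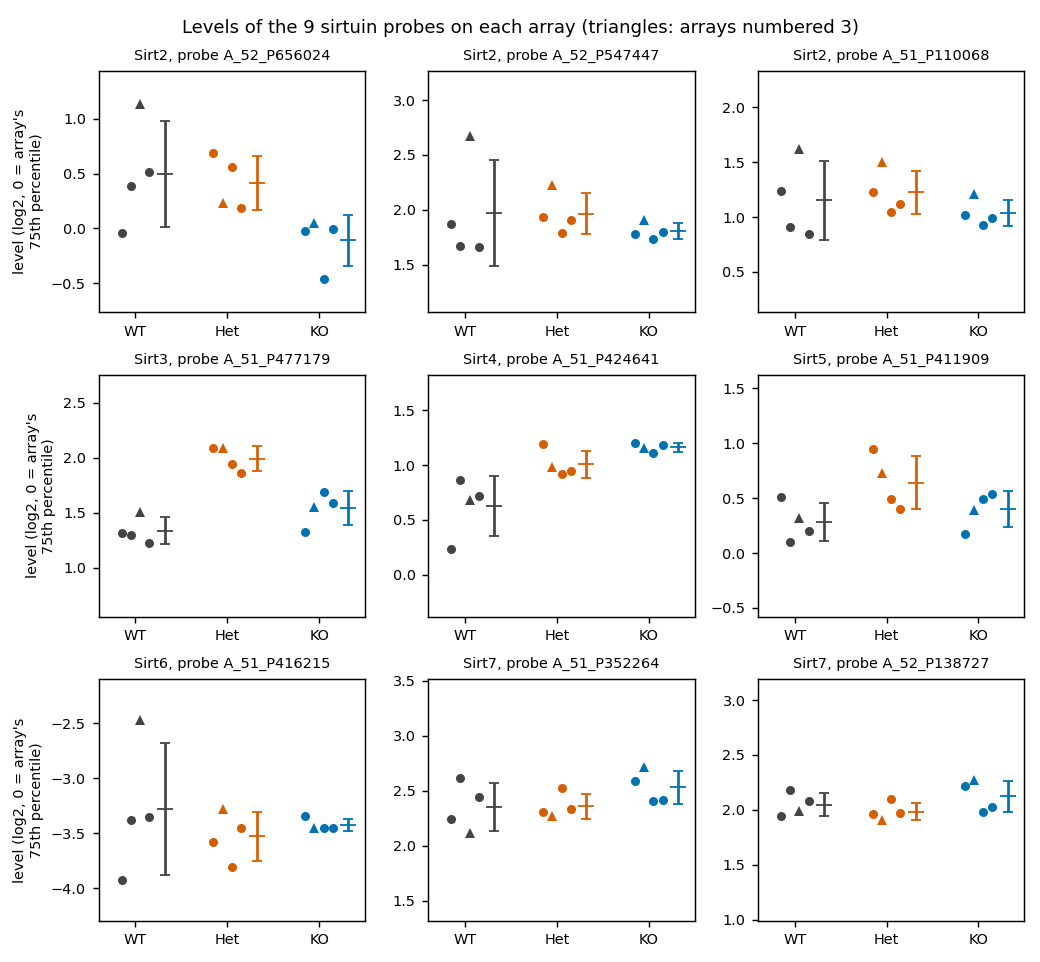
Levels of the 9 probes (log2, 0 is the array's 75th percentile) on each array, by genotype, with the mean and SD of the 4 arrays beside the points; triangles are the arrays numbered 3, and every panel spans the same range. Het lies above WT and KO at Sirt3 with no overlap, and WT lies below Het and KO at Sirt4. The WT triangle is the highest WT point at all 3 Sirt2 probes, at Sirt3 and at Sirt6.

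Sirt3, the main deacetylase of the mitochondrial matrix, was higher in Het than in the other genotypes. Its levels were 1.32, 1.29, 1.51 and 1.22 in WT, 2.09, 2.09, 1.94 and 1.86 in Het, and 1.32, 1.56, 1.69 and 1.58 in KO. The lowest Het array lay above the highest WT and the highest KO array, whereas WT and KO overlapped. The means were 1.34 ± 0.12, 1.99 ± 0.11 and 1.54 ± 0.16 (SD, n = 4 each). Sirt3 rose in Het over WT by 0.66, which is 1.58-fold (SE 0.14, 95% interval 0.36 to 0.95, limma adjusted p = 0.0457). The exact permutation p was 0.0286, the smallest possible. KO against Het gave −0.45 (95% interval −0.75 to −0.16), which was not called (adjusted p = 0.194), although the arrays did not overlap (exact p = 0.0286). KO against WT gave 0.20 (95% interval −0.09 to 0.50, adjusted p = 0.507, exact p = 0.0571). In such bulk RNA, fewer cells of a type and less RNA per cell cannot be told apart. The order of the levels was WT, KO and Het, with WT and KO not distinct beyond their spread.

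The size of the Sirt3 difference between Het and WT varied little, and its call varied more. It was 0.68 within the slide that held 2 WT arrays and 1 Het array, and 0.63 within the slide that held 1 of each. Arrays with the same number differed by 0.79, 0.58 and 0.63 for numbers 2, 3 and 5. These values are not independent of those within slides. The arrays numbered 5 are the pair on the second slide, and the first slide holds the WT and Het arrays numbered 2, with WT replicate 3. With the slide as a block the Sirt3 difference was 0.64 (adjusted p = 0.249), and on unscaled signals 0.42 (adjusted p = 0.375). Without WT replicate 3 it was 0.71 (adjusted p = 0.0109) and without all arrays numbered 3 it was 0.68 (adjusted p = 0.0197). Over all tested probes the former fit called 2027 of 25900 and the latter 2739 of 26801 for Het against WT. Leaving out any 1 of the other 11 arrays ended the call, with adjusted p between 0.0582 and 0.161 and a difference of 0.62 to 0.70. Of 26 alternatives, 6 kept the call, 20 did not, and the difference stayed between 0.42 and 0.75 in all of them. Some of these cannot change the difference by design: other probe filters, KO arrays left out or averaged, and a fit of only WT and Het.

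**Figure D2:**
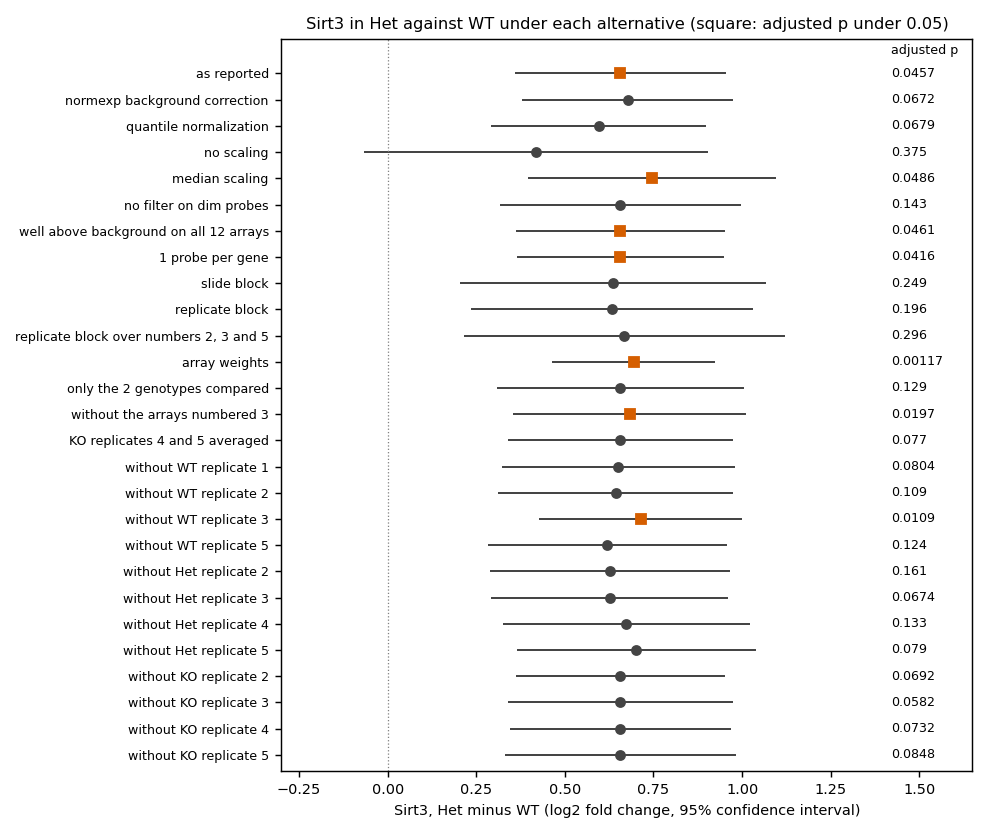
Sirt3 in Het against WT (log2 fold change with its 95% confidence interval) as reported and under each of the 26 alternatives, with the adjusted p at the right; orange squares have an adjusted p under 0.05. All points lie between 0.42 and 0.75, and only the interval without scaling reaches below 0. Points for other probe filters, for KO arrays left out or averaged and for only the genotypes compared are equal by design.

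Sirt3 lies beside Psmd13, a subunit of the proteasome, and Ric8a, a chaperone of G protein alpha subunits. In RefSeq's annotation of GRCm38.p6 the upstream one of 2 Sirt3 start sites lies 85 bases from the start of Psmd13 on the opposite strand. The stretch between these starts (chr7:140882310-140882393, 84 bases, minus strand, read in the direction of Sirt3) is shown because both genes have it as upstream sequence:
Sirt3 and Psmd13: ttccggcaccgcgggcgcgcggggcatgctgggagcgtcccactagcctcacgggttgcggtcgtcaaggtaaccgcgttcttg
The levels of Psmd13 were 0.77, 1.16, 1.16 and 0.97 in WT, 1.15, 1.06, 1.21 and 1.21 in Het, and 0.94, 0.83, 0.97 and 1.29 in KO, with overlap between all genotypes. Psmd13 differed by 0.14 in Het against WT (adjusted p = 0.679). The Sirt3 difference exceeded that of Psmd13 by 0.51 (SE 0.12), with no overlap of the per-array differences between the 2 probes (exact permutation p = 0.0286, 0.257 after adjustment over the 18 such tests run). Ric8a, whose probe lies 0.6 kb from that of Sirt3, had levels of 2.30, 2.31, 2.16 and 2.15 in WT, 2.65, 2.67, 2.57 and 2.42 in Het, and 1.95, 2.31, 2.14 and 2.20 in KO. Het lay above both other genotypes at Ric8a as well, by 0.35 over WT (adjusted p = 0.230), and was not called. Sirt3 exceeded Ric8a in this difference by 0.31 (SE 0.08, exact p = 0.0286, adjusted 0.257). Among the sirtuins only Sirt3, the single one called, was compared with its neighbours in this way. Its call and its excess rest on the same arrays, so an excess was favoured by that choice. Whether the probes compared respond alike to RNA was not tested.

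**Figure D3:**
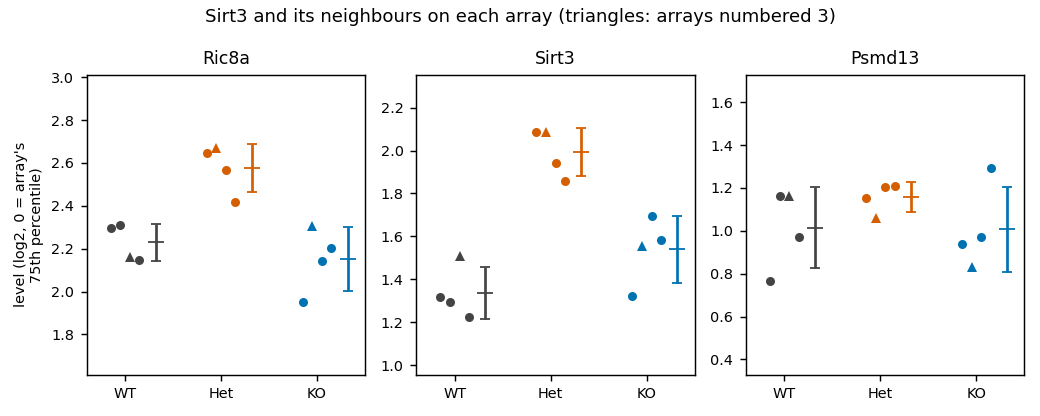
Levels (log2, 0 is the array's 75th percentile) of Sirt3 and of the genes on either side of it, on each array by genotype, with the mean and SD of 4 arrays; triangles are arrays numbered 3 and all panels span the same range. Het lies above WT and KO without overlap at Sirt3 and Ric8a, and the genotypes overlap at Psmd13.

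Sirt4, a mitochondrial sirtuin known for inhibiting glutamate dehydrogenase, was lowest in WT. Its levels were 0.24, 0.87, 0.68 and 0.72 in WT, 1.19, 0.98, 0.92 and 0.94 in Het, and 1.20, 1.15, 1.11 and 1.19 in KO. Every Het and every KO array lay above every WT array, WT replicate 1 was the lowest, and the 4 KO arrays were the closest together (means 0.63 ± 0.27, 1.01 ± 0.12 and 1.16 ± 0.04), 2 of them being the pair correlated at 0.998. KO against WT gave 0.54, or 1.45-fold (SE 0.15, 95% interval 0.20 to 0.87), and was not called (limma adjusted p = 0.116, exact permutation p = 0.0286). It was 0.43 within each of the 2 slides that held both genotypes. Array weights gave an adjusted p of 0.0039, in a fit that called 9687 of the 25600 tested probes for KO against WT. The other 25 alternatives kept Sirt4 uncalled there, with differences of 0.41 to 0.62 over all 26. Het against WT gave 0.38 (95% interval 0.05 to 0.72, adjusted p = 0.252, exact p = 0.0286) and KO against Het 0.15 (95% interval −0.18 to 0.49, adjusted p = 0.780, exact p = 0.114). The order was WT, Het and KO, with Het and KO not distinct beyond their spread. Both comparisons with WT share the WT arrays.

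Sirt5, the mitochondrial desuccinylase and demalonylase, overlapped between all genotypes. Its levels were 0.51, 0.10, 0.32 and 0.20 in WT, 0.94, 0.73, 0.49 and 0.40 in Het, and 0.17, 0.39, 0.49 and 0.54 in KO. The Het arrays numbered 2 and 3 were the highest. Het against WT gave 0.36 (95% interval 0.00 to 0.72, adjusted p = 0.312, exact p = 0.0857), KO against WT 0.12 (−0.24 to 0.48) and KO against Het −0.24 (−0.60 to 0.12). A Het difference was uneven between slides, with 0.73 on 1 slide and 0.20 on the other.

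Sirt2, the cytoplasmic tubulin deacetylase, gave no call at any of its 3 probes, and its junction probe had its lowest levels in KO. At the junction probe A_52_P656024 the levels were −0.04, 0.39, 1.13 and 0.51 in WT, 0.69, 0.23, 0.56 and 0.18 in Het, and −0.02, 0.05, −0.46 and −0.01 in KO. Every KO array lay below every Het array, and WT replicate 1 overlapped with KO. KO against WT gave −0.61, which is 65.7% of the WT signal (SE 0.24, 95% interval −1.13 to −0.08), and was not called (limma adjusted p = 0.235, exact permutation p = 0.114). Without WT replicate 3, the highest array, it was −0.39 (95% interval −0.83 to 0.04, adjusted p = 0.235). Within slides it was −0.78 and −0.75, where the first slide holds WT replicate 3 and the second holds KO replicate 4, the lowest KO array. Arrays with the same number differed by −0.41, −1.08 and −0.52 for numbers 2, 3 and 5. KO against Het gave −0.53 (95% interval −1.05 to −0.00, adjusted p = 0.440, exact p = 0.0286), and Het against WT −0.08 (95% interval −0.60 to 0.44).

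At the overlapping Sirt2 probes downstream limma called no difference. At A_52_P547447 the levels were 1.87, 1.67, 2.68 and 1.66 in WT, 1.93, 2.23, 1.79 and 1.91 in Het, and 1.78, 1.91, 1.73 and 1.80 in KO. At A_51_P110068 they were 1.23, 0.91, 1.62 and 0.84 in WT, 1.23, 1.50, 1.05 and 1.12 in Het, and 1.02, 1.21, 0.93 and 1.00 in KO. The array numbered 3 was the highest of its genotype at both probes in all 3 genotypes, and the genotypes overlapped. KO against WT was −0.16 (95% interval −0.64 to 0.31) and −0.11 (−0.52 to 0.29) at these probes. Without WT replicate 3 both turned positive, to 0.07 and 0.04. KO against Het was −0.16 (95% interval −0.63 to 0.31, adjusted p = 0.852) and −0.19 (−0.60 to 0.22, adjusted p = 0.783). It was below 0 at both probes, as at the junction probe, in each of the 3 slides. In KO against WT the junction probe differed from them by a further −0.44 (SE 0.19) and −0.49 (SE 0.23), neither beyond the spread between arrays (exact p = 0.114 for both, 0.327 adjusted over 18 tests). At WT replicate 3 the 3 probes lay 0.84, 0.94 and 0.63 above the mean of the other WT arrays.

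Sirt6, a chromatin deacetylase known for repressing glycolytic genes, did not separate the genotypes. Its levels were −3.93, −3.38, −2.47 and −3.35 in WT, −3.58, −3.28, −3.81 and −3.45 in Het, and −3.35, −3.46, −3.45 and −3.45 in KO. WT held both the lowest and the highest array, and the KO arrays were the closest together (SD 0.05, n = 4). Het against WT gave −0.25 (95% interval −0.81 to 0.31), KO against WT −0.15 (−0.70 to 0.41) and KO against Het 0.10 (−0.46 to 0.66), with adjusted p of 0.673, 0.843 and 0.932. WT replicate 3 lay 1.08 above the mean of the other WT arrays, and without it the differences from WT were 0.02 and 0.13. The 95% intervals are the widest of the 9 probes.

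Sirt7, the nucleolar sirtuin tied to RNA polymerase I, did not separate the genotypes. At A_51_P352264 the levels were 2.25, 2.61, 2.12 and 2.44 in WT, 2.31, 2.27, 2.53 and 2.33 in Het, and 2.58, 2.72, 2.41 and 2.41 in KO. At A_52_P138727 they ran from 1.95 to 2.18 in WT, 1.91 to 2.10 in Het and 1.98 to 2.28 in KO. All genotypes overlapped at both probes. Het against WT was 0.01 (95% interval −0.32 to 0.33) and −0.06 (−0.34 to 0.22), and KO against WT 0.18 (−0.15 to 0.50) and 0.08 (−0.20 to 0.36). KO against Het was 0.17 (−0.15 to 0.50) and 0.14 (−0.14 to 0.42). The limma adjusted p was 0.621 or higher in each of these. The overlapping Sirt7 probes differed from each other by at most 0.10 in any comparison.

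**Figure D4:**
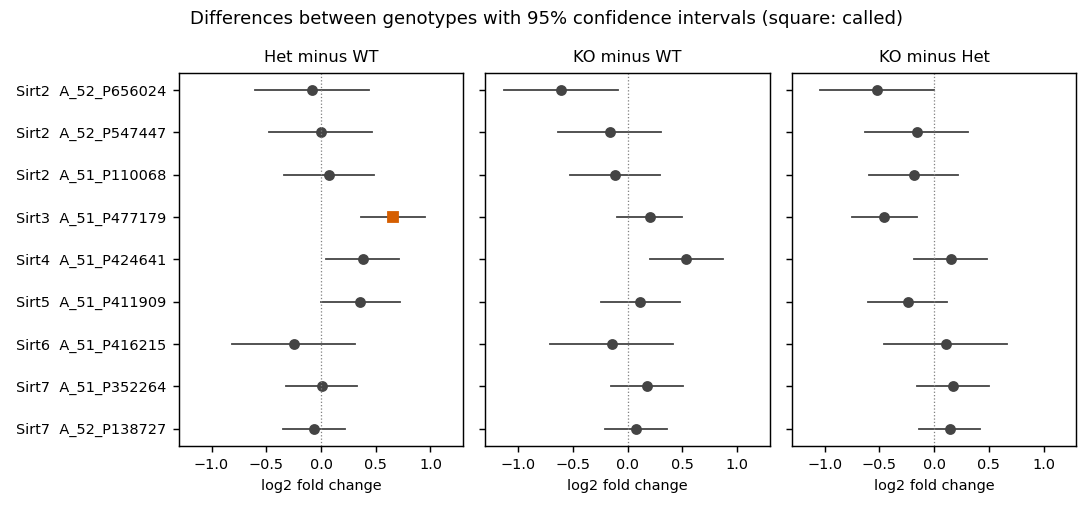
Log2 fold change with its 95% confidence interval at each of the 9 probes for the 3 comparisons; the orange square is the 1 called difference. Sirt3 in Het against WT is 0.66 (0.36 to 0.95), and the intervals of Sirt6 are the widest.

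Genes on which the sirtuins act or depend were counted in 6 lists. Over all tested probes, 1.09%, 1.50% and 0.816% were called in Het against WT, KO against WT and KO against Het. Those with an unadjusted p under 0.05 in limma made up 15.9%, 16.3% and 11.3%. With the slide as a block no gene of any list was called, and values without WT replicate 3 are given where they change a call or move a difference by over 1.5 times. Without WT replicate 3 the calls over all probes rose to 2027, 2397 and 456 of 25900 in the same order of comparisons. Without all arrays numbered 3 they were 2739, 4133 and 2097 of 26801. Genes called only in these fits stand against these larger counts. For the mitochondrial sirtuins, 20 of 24 listed proteins that SIRT3, SIRT4 or SIRT5 deacylate could be tested, and limma called none in any comparison (1, 3 and 1 of 20 had an unadjusted p under 0.05 in Het against WT, KO against WT and KO against Het). In Het against WT, 15 of the 20 had a positive difference, against 52.5% of all tested probes, and 11 of the 20 without WT replicate 3. The medians were 0.16, 0.08 and −0.13. Acadl, an acyl-CoA dehydrogenase of fatty acid oxidation, differed by 0.52 in Het against WT (SE 0.13, adjusted p = 0.0927) and was called without WT replicate 3 (0.51, adjusted p = 0.0462). The fusion protein Opa1 differed by 0.25 there (adjusted p = 0.412). Glud1, the glutamate dehydrogenase that SIRT4 inhibits, differed by −0.47 in KO against WT (SE 0.20, adjusted p = 0.258). Without WT replicate 3 it was called, at −0.67 (adjusted p = 0.0142), and without all arrays numbered 3 at −0.75 (adjusted p = 0.0058). Acadvl, which acts on longer fatty acids than Acadl, differed by 0.54 (SE 0.22, adjusted p = 0.241) and by 0.32 without WT replicate 3. In KO against Het the lowest p were those of Acadl (−0.35, adjusted p = 0.342) and Acadvl (0.36, adjusted p = 0.598).

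None of the 11 regulators of mitochondrial biogenesis was called by limma either (1, 0 and 0 at an unadjusted p under 0.05). The medians were 0.11, −0.01 and −0.11 in the same order of comparisons. Ppargc1a, the coactivator that drives this programme and Sirt3 with it, differed by 0.82 in Het against WT (SE 0.35, adjusted p = 0.285), and by 0.46 without WT replicate 3. Its probe was dim, with mean levels of −5.02, −4.20 and −4.65 in WT, Het and KO. Gabpa, an ETS factor, differed by 0.38 in Het against WT (adjusted p = 0.387) and by 0.19 without WT replicate 3. In KO against WT, Tfb1m, a mitochondrial ribosomal RNA methyltransferase, differed by 0.27 (adjusted p = 0.485), and Tfam, which packages mitochondrial DNA, by −0.75 (SE 0.48, adjusted p = 0.491). In KO against Het, Gabpa differed by −0.38 (adjusted p = 0.532) and Tfam by −0.89 (adjusted p = 0.538). Esrra, the nuclear receptor that works with Ppargc1a, differed by −0.34 in Het and −0.44 in KO against WT (adjusted p = 0.626 and 0.518). Without WT replicate 3 it was called in both, at −0.71 (adjusted p = 0.0141) and −0.82 (adjusted p = 0.0071).

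Enzymes that make or use NAD, the substrate of all sirtuins, gave no call in limma among 14 tested of 17 (1, 1 and 0 at an unadjusted p under 0.05). The medians were 0.12, 0.03 and −0.09. Nadsyn1, the last enzyme of NAD synthesis from tryptophan and nicotinic acid, differed by 0.84 in Het against WT (SE 0.25, adjusted p = 0.144) and by 0.50 in KO against WT (adjusted p = 0.360). Without WT replicate 3 both were called, at 1.07 (adjusted p = 0.0141) and 0.74 (adjusted p = 0.0495). Nmrk1, a nicotinamide riboside kinase, differed by 0.33 in Het against WT (adjusted p = 0.322) and by 0.44 in KO against WT (SE 0.15, adjusted p = 0.185). In KO against Het, Nnmt, which methylates nicotinamide, differed by −1.84 (SE 0.88, adjusted p = 0.468), and the NAD hydrolase Sarm1 by 0.42 (adjusted p = 0.560).

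The list for SIRT6 holds Hif1a itself and 8 genes of glucose use, picked as genes that SIRT6 can repress. Whether HIF1A induces each of the 8 was not tested. Limma called 1 of the 9 in Het against WT and none in the other comparisons, with 4, 1 and 2 at an unadjusted p under 0.05. Of all tested probes 1.09%, 1.50% and 0.816% were called, and 15.9%, 16.3% and 11.3% had such a p. The called gene was Pdk1, a kinase that inhibits pyruvate dehydrogenase, and its level rose in Het by 1.03 (SE 0.20, adjusted p = 0.0413). This call was lost with the slide as a block (1.25, adjusted p = 0.0959) and held in 4 of the 12 fits that left out 1 array. It held without WT replicate 3 (1.06, adjusted p = 0.0178) and was lost without WT replicate 2 or 5, Het replicate 2, 4 or 5, or KO replicate 2, 4 or 5 (adjusted p 0.0678 to 0.142). The aldolase Aldoc differed by 1.29 in Het against WT (SE 0.41, adjusted p = 0.160). It was called without WT replicate 3 (1.61, adjusted p = 0.0285) and without the arrays numbered 3 (1.79, adjusted p = 0.0034). In Het against WT 8 of the 9 had a positive difference, against 52.5% of all tested probes, with a median of 0.34. Without WT replicate 3 it was 5 of the 9. Hif1a counted among the 8 at 0.03, and was −0.03 without WT replicate 3. The negative one over all arrays was Ldhb, a lactate dehydrogenase subunit (−0.77, adjusted p = 0.427, and −1.15 without WT replicate 3). Ldhb was called without the arrays numbered 3 (−1.32, adjusted p = 0.0142). The median was 0.21 in KO against WT, where Pdk1 differed by 0.44 (adjusted p = 0.303) and Aldoc by 0.77 (adjusted p = 0.383). It was −0.44 in KO against Het, where Pdk1 differed by −0.58 (adjusted p = 0.277) and Ldhb by 1.05 (adjusted p = 0.396). Without the arrays numbered 3, Aldoc was called in KO against WT, and Ldhb and the glucose transporter Slc2a1 in KO against Het. That fit called 3, 1 and 2 of the 9 in Het against WT, KO against WT and KO against Het. Of all 26801 probes tested in it, 2739, 4133 and 2097 were called.

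The lists for SIRT7 and SIRT2 gave no calls in limma. For SIRT7, 18 genes were listed and tested: RNA polymerase I, its factors, the nucleolar proteins Ncl and Npm1, and Elk4, an ETS factor that binds SIRT7. Their medians were −0.08, −0.02 and −0.10, and 1, 1 and 0 of them had an unadjusted p under 0.05. Polr1h, a polymerase subunit that the array names Znrd1, differed by 0.59 in Het and 0.39 in KO against WT (adjusted p = 0.160 and 0.335). Taf1c, a subunit of the promoter selectivity factor, differed by −0.39 in Het and −0.48 in KO against WT (adjusted p = 0.318 and 0.211). In KO against Het, Ubtf, the factor that opens ribosomal DNA, differed by −0.21 (adjusted p = 0.693) and the terminator Ttf1 by −0.22 (adjusted p = 0.696). Ncl was called in KO against WT without the arrays numbered 3 (−0.72, adjusted p = 0.0452), against −0.49 over all arrays and −0.78 without WT replicate 3.

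For SIRT2, 14 substrates and partners were listed, from tubulins and mitotic regulators to the transcription factor Foxo1, the kinase Cdk9 and the metabolic enzymes Acly and G6pdx. Of these, 13 were tested, with medians of 0.08, −0.03 and 0.01, and 0, 1 and 0 had an unadjusted p under 0.05. Foxo1 differed by 0.79 in KO against WT (SE 0.26, adjusted p = 0.163), and was called without WT replicate 3 (0.94, adjusted p = 0.0472). The tubulin Tuba1c differed by −0.39 in KO against WT and −0.40 in KO against Het (adjusted p = 0.360 and 0.477). In Het against WT, G6pdx differed by 0.33 and Cdk9 by 0.27 (adjusted p = 0.412 and 0.443), and by 0.21 and 0.13 without WT replicate 3. In KO against Het, Cdk9 differed by −0.34 (adjusted p = 0.469).

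**Figure D5:**
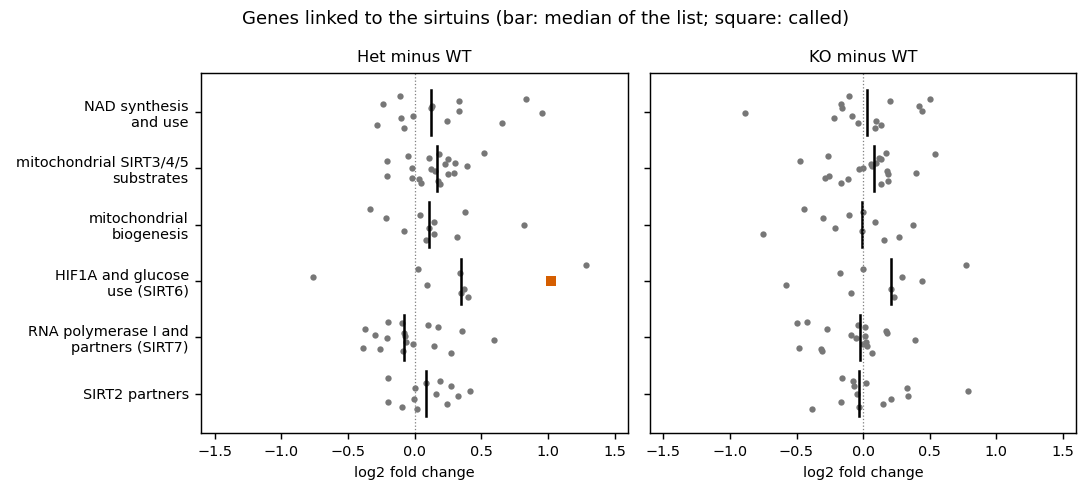
Log2 fold change of each tested gene of the 6 lists in Het against WT and KO against WT; bars are the medians of the lists and the orange square is Pdk1, the 1 called gene. The medians in Het against WT run from −0.08 for the SIRT7 list to 0.34 for the SIRT6 list.

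The genes next to each sirtuin in the array's own coordinates were also read. Around Sirt6, Tle6 (30.8 kb away, a corepressor of the Groucho family) rose by 1.16 in Het against WT (adjusted p = 0.0164) and Ankrd24 (17.6 kb away) by 0.76 (adjusted p = 0.0476), while Sirt6 itself gave −0.25. The levels of Tle6 were 1.64, 1.48, 1.64 and 1.82 in WT, 2.92, 2.52, 2.85 and 2.95 in Het, and 1.70, 2.37, 1.96 and 1.81 in KO. Het lay above both other genotypes there. With the slide as a block both calls were lost (1.09, adjusted p = 0.135, and 0.73, adjusted p = 0.229), and without WT replicate 3 both held (1.16, adjusted p = 0.0069, and 0.77, adjusted p = 0.0212). Leaving out WT replicate 2 or Het replicate 2, 4 or 5 also ended the call of Tle6 (adjusted p 0.0554 to 0.0698), and leaving out any 1 of the 11 arrays other than WT replicate 3 ended that of Ankrd24 (adjusted p 0.0589 to 0.161). Neighbours of Sirt2 (Nfkbib and Rinl), Sirt4 (Pxn), Sirt5 (Gfod1 and Nol7) and Sirt7 (Pcyt2 and Mafg) were not called in any comparison, and Pla2g1b beside Sirt4 was too dim to be tested.

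For each sirtuin, represented by its probe with the highest mean level, the 3 genes with the most similar pattern over the 12 arrays were taken by Pearson correlation among 22025 probes well above background on all arrays. The arrays share genotype, slide and scaling, so these are descriptions. Sirt3 was closest to Impa2 (r = 0.95), Diras1 (0.95) and Arl15 (0.93), each of which also had its highest mean in Het. Diras1, for example, averaged −4.33 in WT, −3.01 in Het and −3.92 in KO. Sirt4 was closest to Dhx16 (0.97), Zfp599 (0.96) and Pithd1 (0.94), each lowest in WT, with Pithd1 at 1.47, 1.86 and 2.04. Sirt2 was closest to Rhog (0.97), Acat3 (0.97) and Vamp2 (0.97), whose levels peak on WT replicate 3, as Acat3 does with 0.98 there and −1.93 to −0.63 on the other arrays. Sirt6 was closest to Mospd3 (0.94), Reep4 (0.94) and B830017H08Rik (0.93), with the same array highest. Sirt5 was closest to Vasn (0.91), Kiz (0.91) and Pmel (0.91), and Sirt7 to Napg (0.90), Ddi2 (0.87) and Lypd2 (0.86).

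Promoter windows were searched for 4 motifs on both strands in RefSeq's GRCm38.p6, with 8 windows for the 6 genes and 32851 in all. The ETS core CCGGAAG was in 1 window each of Sirt3, Sirt6 and Sirt7 and in 8.86% of all windows. The NRF1 core GCATGCGC was in 1 window each of Sirt6 and Sirt7, and in 2.71% of all. The nuclear receptor half-site TGACCTT was in the window of Sirt5 and in 4.72% of all, and the E-box CACGTG was in none of the 8 and in 7.15% of all.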

How the data were processed

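Spot signals come from Agilent Feature Extraction, per the file headers, and the submitters' processing notes give version 9.5. The deposited processed signal is a linear intensity, background-subtracted by that software and not scaled between arrays. The deposited series table holds the same intensity (largest relative difference 0).

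Control and outlier spots were left out and spots of a probe averaged. The log2 of this intensity, minus the array's 75th percentile, is the level. A probe was tested when well above background on all arrays of at least 1 genotype. The 3 genotypes entered limma 3.58.1 (R 4.3.3) in 1 fit of group means over 12 arrays with Benjamini-Hochberg adjustment, which was tested on simulated data. Exact two-sided permutation tests were run for the sirtuin probes, 27 in number and not adjusted for it. Neighbours, list genes and other probes were named through RefSeq tables: 23082 probes by accession, 6582 by symbol and 3073 by synonym, with 8437 unmatched. List genes were represented by their probe with the highest mean level. Promoter windows cover the bases around a RefSeq start site, mostly before it, and all 6 genes matched. Figures were drawn with matplotlib 3.10.9.

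The named genes are all sirtuin probes, the called genes of each list or else its 2 genes with the lowest p in a comparison, the neighbours and the 3 most similar genes of each sirtuin; Aldoc and Ldhb in Het against WT, Esrra, Slc2a1 and Ncl were added after their values were seen. The members and lists were chosen with earlier results of these data known. The alternatives were another background correction, scaling, probe filter, block and weighting, and leaving out arrays. The number of arrays limits the precision.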

Additional observations from a re-analysis of the deposited data

Results flagged for a closer look

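Each sirtuin probe was examined for a single array far from the others of its genotype. At the Sirt6 probe A_51_P416215, KO replicate 2 stood at −3.35 while the other KO arrays stood at −3.46 to −3.45. At the Sirt2 junction probe A_52_P656024, KO replicate 4 stood at −0.46, below the other KO arrays at −0.02 to 0.05. None of the differences of these 2 probes was called. Chance alone marks about 1 in 20 groups in such a search.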

How the results depend on the processing

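Of the 27 differences (9 probes in 3 comparisons), 13 kept their direction under all 26 alternatives, and none of the 14 that turned was called as reported. The cause of these shifts was not tested. Some alternatives cannot change a difference by design: other probe filters, a fit of only the genotypes compared, and arrays of the third genotype left out or averaged. The count of called probes for Het against WT went from 1 to 0 with normexp background correction, quantile normalization, no scaling, no filter on dim probes, the slide as a block, both replicate blocks, a fit of only the 2 genotypes and KO replicates 4 and 5, the most correlated pair, averaged. It ran from 0 to 1 when 1 array was left out. Array weights raised the count for KO against WT from 0 to 3 (Sirt4, Sirt3 and the Sirt2 junction probe). For KO against Het it went from 0 to 2 (Sirt3 and the Sirt2 junction probe). In these comparisons array weights called 9687 and 7533 of all 25600 tested probes.

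The following differences turned sign. For Het against WT, Sirt7 A_51_P352264 gave −0.06 with quantile normalization, −0.23 with no scaling, −0.10 with the slide block, −0.03 with array weights and −0.04 without the arrays numbered 3. Sirt7 A_52_P138727 gave 0.02 with median scaling. Sirt2 A_52_P547447 gave 0.09 with median scaling, 0.16 with array weights and 0.14 without the arrays numbered 3. Sirt2 A_52_P656024 gave 0.01 with median scaling and 0.19 without the arrays numbered 3, and Sirt2 A_51_P110068 gave −0.17 with no scaling. For KO against WT, array weights gave 0.07 at Sirt2 A_51_P110068, 0.08 at Sirt2 A_52_P547447, −0.03 at Sirt7 A_51_P352264 and −0.05 at Sirt7 A_52_P138727. Sirt6 gave 0.06 with normexp and 0.14 without the arrays numbered 3, and Sirt2 A_52_P547447 gave 0.04 without them. For KO against Het, no scaling gave 0.07 at Sirt2 A_51_P110068, 0.09 at Sirt2 A_52_P547447 and 0.01 at Sirt5. Leaving out 1 array, Het against WT ran from −0.03 to 0.23 at Sirt2 A_51_P110068, −0.11 to 0.23 at Sirt2 A_52_P547447, −0.26 to 0.13 at Sirt2 A_52_P656024, −0.47 to 0.02 at Sirt6 and −0.07 to 0.09 at Sirt7 A_51_P352264. KO against WT ran from −0.22 to 0.04 at Sirt2 A_51_P110068, −0.27 to 0.07 at Sirt2 A_52_P547447 and −0.36 to 0.13 at Sirt6.

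The sample titles hold a second code that is not explained. It matches the replicate number for numbers 2 and 3, is Oct for the arrays numbered 4, and differs between genotypes for number 5. Beyond the number and this code, the labels do not tie arrays of the same number. Over the 3 comparisons their deviations correlated by −0.093 to 0.399, with 0.204 to 0.399 for number 3, and the arrays numbered 3 were the ones that correlated best with their own number. With the replicate block Sirt3 in Het against WT was 0.63 (adjusted p = 0.196), Sirt7 A_51_P352264 −0.04 and Sirt2 A_52_P547447 0.01. With the replicate block over numbers 2, 3 and 5 they were 0.67, −0.09 and 0.02. Over all tested probes the calls numbered 278, 383 and 209 for Het against WT, KO against WT and KO against Het as reported. They were 58, 72 and 107 with the slide block, 110, 146 and 218 with the replicate block, 6, 12 and 13 with the block over numbers 2, 3 and 5, and 59, 167 and 88 with normexp. They were 61, 119 and 87 with no filter, 162, 153 and 209 with no scaling, 72, 142 and 388 with only the 2 genotypes compared, and 84, 73 and 58 with KO replicates 4 and 5 averaged. They were 4419, 9687 and 7533 with array weights and 2739, 4133 and 2097 without the arrays numbered 3. The filter to all 12 arrays called 121 for KO against Het. Leaving out 1 array gave 40 to 2027, 68 to 2397 and 50 to 526. The share of calls that were higher in Het than in WT was 48.6% as reported, 17.3% with no scaling and 65.8% with median scaling, and for KO against Het 64.1% and 81.8% with no scaling.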
